A study of Mus musculus with 20 samples.

Results

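Plagl1 and Grb10 are imprinted genes that act on growth, and the promoter windows placed at them by position were followed through 20 single mouse blastocysts. A window was taken when its start on build GRCm39 lay between 12900000 and 13030000 on chromosome 10 (Plagl1) or between 11850000 and 12020000 on chromosome 11 (Grb10). This gave 6 of the 54034 windows of 3500 bp, 3 for each gene. Methylation was measured by bisulfite sequencing of the DNA of each embryo after its polyadenylated RNA had been captured on beads. The 10 mutant blastocysts (replicates 11 to 20) came from the Padi6-mutant group, which the series text ties to Padi6 P620A oocytes. The 10 control blastocysts (replicates 1 to 10) are labelled Control for genotype. PADI6 is made in the oocyte, where it is part of the subcortical maternal complex. The sources used here name no strain, mother, litter, sex or genotype of the embryo itself, so p-values measure the spread between embryos, some of which may share a mother. Mutant embryos had a value in 2875 to 43812 windows and control embryos in 4984 to 46950. Embryos with more than 30000 windows are called densely covered, 3 in the mutant and 6 in the control group. Read depth per window is unknown.

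An imprinted gene is expressed from only the maternal or only the paternal copy, and the choice is carried by DNA methylation laid down in egg or sperm and kept through cleavage while most other methylation is lost. Plagl1 (also Zac1) encodes a zinc finger transcription factor that acts on other imprinted genes and on fetal growth; its main promoter is methylated on the maternal copy and the paternal copy is expressed, together with the non-coding RNA Hymai, which lies within the gene. Grb10 encodes an adaptor protein that binds the insulin and IGF1 receptors and restrains growth. Most mouse tissues use the maternal copy of Grb10 from its upstream promoter, and neurons use the paternal copy from promoters beside a maternally methylated CpG island. ZFP57, a zinc finger protein that keeps methylation at imprinted regions, binds the methylated motif TGCCGC.

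The promoters that RefSeq gives for both genes are shown because they carry the CpG dinucleotides, the bases that can be methylated, here in capitals. Each runs 5′ to 3′ on the strand of its gene, from 250 bases before the start of transcription to 50 bases from the start on, and coordinates are on build GRCm38.p6. The Plagl1 promoter lies at chr10:13090582-13090881 on the plus strand, the upstream Grb10 promoter at chr11:12037371-12037670 and the downstream Grb10 promoter at chr11:12027922-12028221, both on the minus strand.
Plagl1: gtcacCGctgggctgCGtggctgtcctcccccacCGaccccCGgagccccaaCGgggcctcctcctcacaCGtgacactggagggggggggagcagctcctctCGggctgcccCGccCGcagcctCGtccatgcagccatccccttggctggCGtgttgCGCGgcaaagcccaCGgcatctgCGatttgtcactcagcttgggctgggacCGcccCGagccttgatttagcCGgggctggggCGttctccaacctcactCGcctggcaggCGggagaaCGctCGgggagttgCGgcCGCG
Grb10 upstream: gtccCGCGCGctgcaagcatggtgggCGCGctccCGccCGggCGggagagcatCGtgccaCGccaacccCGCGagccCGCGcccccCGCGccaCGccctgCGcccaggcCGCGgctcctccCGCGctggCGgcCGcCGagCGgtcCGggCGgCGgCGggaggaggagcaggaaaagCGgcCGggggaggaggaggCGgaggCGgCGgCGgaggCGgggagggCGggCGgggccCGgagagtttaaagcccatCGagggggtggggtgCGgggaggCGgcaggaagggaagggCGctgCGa
Grb10 downstream: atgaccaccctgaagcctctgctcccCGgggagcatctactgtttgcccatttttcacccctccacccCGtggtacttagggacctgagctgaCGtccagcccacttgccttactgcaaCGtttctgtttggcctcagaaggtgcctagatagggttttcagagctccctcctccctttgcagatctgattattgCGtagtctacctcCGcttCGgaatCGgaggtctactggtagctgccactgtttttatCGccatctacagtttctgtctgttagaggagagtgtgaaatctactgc

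The upstream Grb10 promoter held 45 CpGs in 300 bases, a number that 1.93% of the 32851 RefSeq mouse promoters of this length reached. The Plagl1 promoter held 26 CpGs, which 16.9% of promoters reached. The downstream Grb10 promoter held 9 CpGs, near the median of 7 over all promoters. TGCCGC, searched on both strands, occurred 1 time in the Plagl1 promoter and 1 time in the upstream Grb10 promoter, each on the reverse strand as GCGGCA, and was not among the letters of the downstream Grb10 promoter. Of all promoters of this length, 11.6% held the motif. The motif contains a CpG, and its share among promoters as rich in CpGs as the Plagl1 and upstream Grb10 promoters is not given.

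These sequences are on an older build than the windows and could not be joined to them by position, and the windows carry no gene name or strand. Whether any window covers the maternally methylated region of either gene was therefore not established. For Grb10, the outermost start sites that the windows allow lie at least 138054 bp apart, whereas the gene is 106930 bp long in RefSeq on GRCm38.p6. Unless the gene is longer on GRCm39, at least 1 of the Grb10 windows starts outside it. The nearest RefSeq genes beside Grb10 on GRCm38.p6 are Gm25058, next to Ddc, and Gm30423, and those beside Plagl1 are Gm40602, next to Sf3b5, and Zc2hc1b. The windows are numbered along the chromosome for each gene and called by these numbers. Start sites allowed by Grb10 window 1 lie at or below 11866249, and those allowed by Grb10 window 2 at or above 11988683. This gap is also longer than the gene, so Grb10 window 1 cannot start within a gene of that length together with Grb10 window 2 or 3.

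No tested window at either gene showed a methylation difference between mutant and control embryos that could be told from the spread between embryos. Of the 6 windows, 5 were covered in 3 or more embryos per group and so tested, and 0 of them passed in limma at an adjusted p under 0.05. Of all 37645 windows tested, 14 passed, or 0.0372%. With overlapping windows joined into blocks, each of the 6 windows formed a block of its own, and 0 of the 5 tested blocks passed, against 0.0584% of all blocks. At an unadjusted p under 0.05 there were 0 of the 5 windows, against 5.75% of all windows tested. An exact two-sided permutation test over embryos gave 0 of 5 as well, with p from 0.429 to 0.810. Mutant means were lower in 2 of the 5 windows and higher in 3, with a median difference of 4.17 percentage points, beside -1.07 points over all windows tested. 

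The measurements were few. Out of 60 possible values in each group, 21 were present in mutant and 35 in control embryos, and 14 of those 21 and 33 of those 35 came from densely covered embryos. Values of exactly 0% made up 12 of the 21 mutant and 10 of the 35 control values. Over all windows, 67.4% to 82.4% of the values of a sparsely covered embryo were exactly 0% or 100%. In densely covered embryos the share was 33.6% to 58.9%. The part of coverage in the number of zeros was not tested. No value was present at either gene in 1 mutant and 2 control embryos.

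Plagl1 window 1, on chromosome 10 from 12926630 to 12930129, was the Plagl1 window with the highest control mean. Mutant replicates 11, 13, 14 and 15 stood at 0%, 0%, 25% and 100%, and control replicates 1 to 5 at 0%, 0%, 40%, 100% and 37.5%. Both groups ran over the whole scale. The mean was 31.2% ± 47.3 (SD, n = 4) in mutant and 35.5% ± 40.9 (SD, n = 5) in control embryos. The difference was -4.25 points (SE 27.0, 95% interval -66.2 to 57.7, limma adjusted p = 0.973), and the control mean exceeded 3 of 4 mutant values. Single embryos moved it either way. Without mutant replicate 15, at 100%, it was -27.2 points, and without mutant replicate 11 or 13, both at 0%, it was 6.17 points. Without control replicate 1 or 2, both at 0%, it was -13.1 points, and without control replicate 4, at 100%, it was 11.9 points.

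Plagl1 window 2, from 12933248 to 12936747, carried little methylation in both groups. Mutant replicates 11, 12, 14 and 17 stood at 0%, 0%, 0% and 50%. Control replicates 2, 3, 4, 5 and 10 stood at 3.23%, 0%, 0%, 11.1% and 0%. All embryos except mutant replicate 17, which had the fewest covered windows of all (2875), were at or below 11.1%. The mean was 12.5% ± 25 (SD, n = 4) in mutant and 2.87% ± 4.82 (SD, n = 5) in control embryos, a difference of 9.63 points (SE 10.5, 95% interval -14.5 to 33.8, limma adjusted p = 0.841), and the control mean exceeded 3 of 4 mutant values. Without replicate 17 the difference was -2.87 points.

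Plagl1 window 3, from 12967062 to 12970561, was methylated in every control embryo that covered it, and 1 mutant embryo covered it. Mutant replicate 14 stood at 0%, below the lowest control embryo. Control replicates 1, 2, 3, 4, 5 and 10 stood at 30%, 16.7%, 50%, 15.4%, 87.5% and 11.1%, with a mean of 35.1% ± 29.3 (SD, n = 6). With 1 mutant embryo this window was outside the test, and it shows the embryo rather than the group. It was the only one of the 6 windows with no control embryo at 0%, and 10.6% of all windows tested had as high a control mean.

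Grb10 window 1, on chromosome 11 from 11863249 to 11866748, was at 0% in 3 of the 4 mutant embryos. Mutant replicates 12, 14, 18 and 19 stood at 0%, 31.2%, 0% and 0%. Control replicates 1, 2, 3, 4, 7 and 10 stood at 16.7%, 18.4%, 18.8%, 0%, 40% and 0%, so the groups overlapped. The mean was 7.81% ± 15.6 (SD, n = 4) in mutant and 15.6% ± 14.8 (SD, n = 6) in control embryos. The difference was -7.82 points (SE 9.27, 95% interval -28.7 to 13.05, limma adjusted p = 0.846), and the control mean exceeded 3 of 4 mutant values. Of the mutant zeros, 2 came from sparsely covered embryos, and so did the highest control value, 40% in replicate 7. Without control replicate 7 the difference was -2.94 points, and without mutant replicate 14 it was -15.6 points.

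Grb10 window 2, from 11988184 to 11991683, had the highest control mean of the Grb10 windows and was covered only in densely covered embryos. Mutant replicates 11, 12 and 14 stood at 0%, 16.7% and 75%. Control replicates 1, 2, 3, 4, 5 and 10 stood at 26.3%, 18.8%, 8.33%, 33.3%, 55.6% and 0%. Mutant replicate 14 lay above all control embryos, and the other 2 mutant embryos within the control range. The mean was 30.6% ± 39.4 (SD, n = 3) in mutant and 23.7% ± 19.7 (SD, n = 6) in control embryos, a difference of 6.84 points (SE 17.6, 95% interval -33.4 to 47.1, limma adjusted p = 0.925), and the control mean exceeded 2 of 3 mutant values.

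Grb10 window 3, from 12003804 to 12007303, had values in 12 embryos, the most of the 6 windows. Mutant replicates 11, 12, 14, 16 and 19 stood at 8.33%, 25%, 66.7%, 0% and 0%. Control replicates 1, 2, 3, 4, 5, 8 and 10 stood at 20%, 20%, 25%, 12.5%, 0%, 0% and 33.3%. Mutant replicate 14 lay above all control embryos and the other 4 mutant embryos within their range. The mean was 20.0% ± 28.0 (SD, n = 5) in mutant and 15.8% ± 12.5 (SD, n = 7) in control embryos, a difference of 4.17 points (SE 11.2, 95% interval -20.5 to 28.8, limma adjusted p = 0.928), and the control mean exceeded 3 of 5 mutant values. Without replicate 14 it was -7.50 points.

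**Figure D1:**
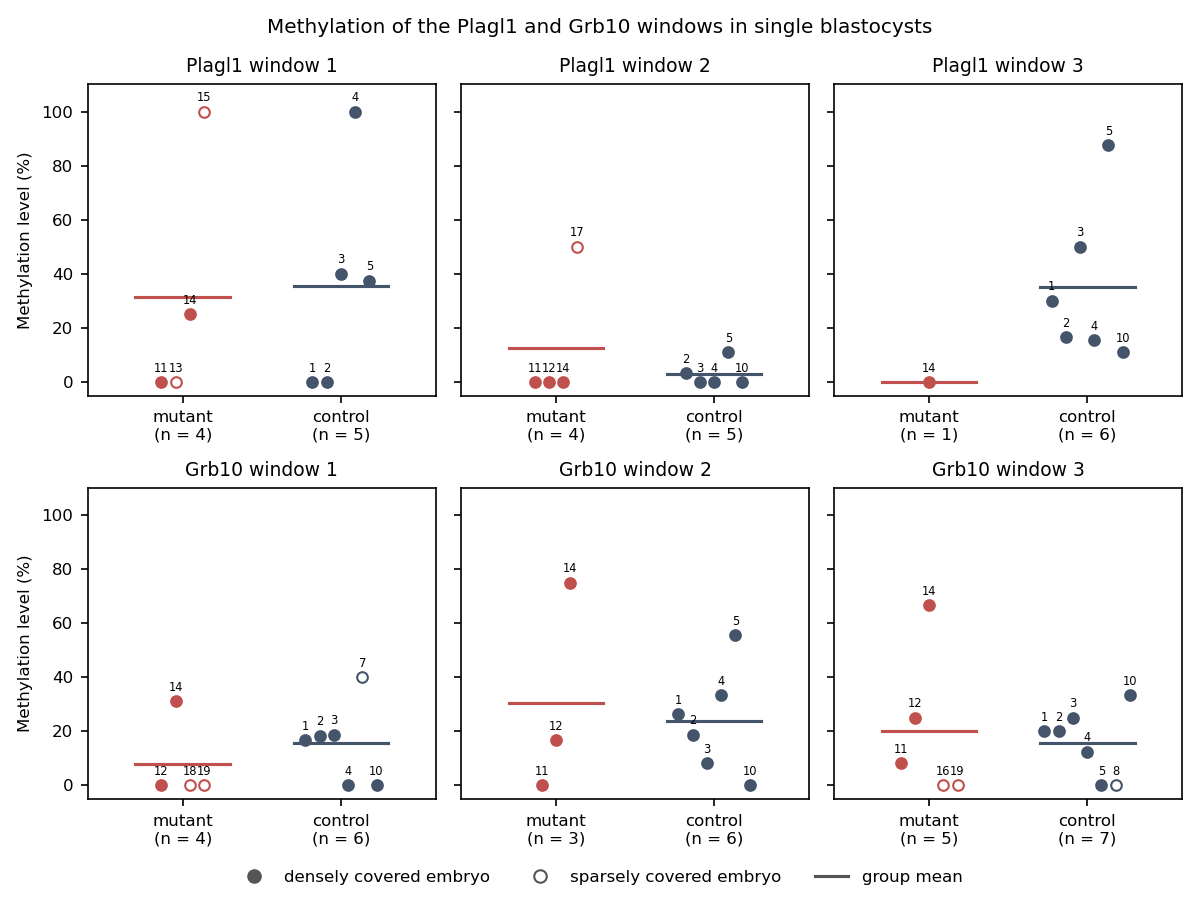
Methylation level in percent (vertical axis) of each embryo in the 6 windows, mutant embryos on the left of each panel and control embryos on the right, labelled by replicate number; horizontal lines are group means. The groups overlap in the 5 tested windows, and mutant replicate 14 is the highest mutant embryo in all 3 Grb10 windows, at 31.2%, 75% and 66.7%.

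The 5 intervals were wide. Each included 0, and each lower bound lay further from 0 than the control mean, so the intervals set no lower limit on the mutant mean. In each of the 5 windows at least 1 mutant embryo had a level above 0%. At Grb10 window 2, the lower bound was -33.4 points against a control mean of 23.7%, and at Plagl1 window 1 it was -66.2 points against a control mean of 35.5%.

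**Figure D2:**
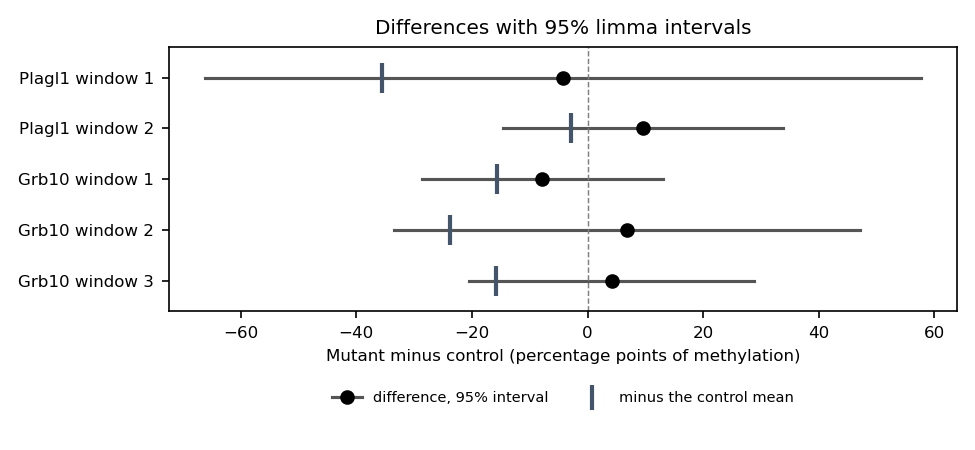
Mutant minus control difference in percentage points (horizontal axis) for the 5 tested windows, with 95% intervals from limma as lines and the control mean, with a minus sign, as a vertical tick. Every interval spans both 0 and its tick; the differences run from -7.82 to 9.63 points.

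Ordered by control mean, the windows stood at 35.5% (Plagl1 window 1), 35.1% (Plagl1 window 3), 23.7% (Grb10 window 2), 15.8% (Grb10 window 3), 15.6% (Grb10 window 1) and 2.87% (Plagl1 window 2). Neighbours in this order differed by less than the larger of their SDs between control embryos. The median control mean over all tested windows was 9.66%, so 5 of the 6 windows lay above it. As high a control mean as that of Plagl1 window 1 was reached by 10.3% of all windows tested, and as high a one as that of Plagl1 window 2 by 79.5%.

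Averaged over its covered windows in each embryo, Plagl1 stood at 26.4% ± 41.0 (SD, n = 6) in mutant and 23.5% ± 16.9 (SD, n = 6) in control embryos. The mutant median was 4.17% and the control median 22.5%, and 3 of 6 mutant embryos lay at 0%, below the lowest control embryo at 5.56%. These mutant embryos, replicates 11, 12 and 13, had no value in Plagl1 window 3. All 6 control embryos had one there, and none of them was at 0%. Within Plagl1 window 1 and Plagl1 window 2, 0 mutant embryos lay below the lowest control embryo, which was at 0%. The mutant mean rested on replicate 15 at 100% and replicate 17 at 50%, each from 1 window in a sparsely covered embryo. Grb10 stood at 12.6% ± 22.7 (SD, n = 6) in mutant and 18.9% ± 11.7 (SD, n = 8) in control embryos, with medians of 2.08% and 18.2%. Its mutant embryos ran from 0% to 57.6% and its control embryos from 0% to 40%. Embryos differ in which windows they cover, so these means are descriptions. Unless the gene is longer on the newer build, at least 1 Grb10 window starts outside it, as given above. The Grb10 mean may therefore not be of that gene alone. Whether the Plagl1 windows all start in Plagl1 was not established either, because the windows carry no gene name or strand.

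Mutant replicate 14 set the upper end at Grb10 but not at Plagl1. Its Grb10 mean over 3 windows was 57.6%, above every other mutant and control embryo, and its Plagl1 mean over 3 windows was 8.33%. In the windows flanking Grb10 by up to 1 Mb, replicate 14 stood at 15.9%. Over the whole table it had the highest mean level of the mutant embryos, at 17.6%, and the most covered windows of them, 43812. The part of either in the Grb10 values was not tested.

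Among densely covered embryos alone, Plagl1 window 2 stood at 0.0% ± 0.0 (SD, n = 3) in mutant and 2.87% ± 4.82 (SD, n = 5) in control embryos. Grb10 window 2 had the values given above. Grb10 window 3 stood at 33.3% ± 30.0 (SD, n = 3) in mutant and 18.5% ± 11.4 (SD, n = 6) in control embryos, a difference of 14.9 points (limma adjusted p = 0.859). These were the 3 windows that could be tested in densely covered embryos, and 0 passed, against 0.0139% of all windows in that fit, with 0 at an unadjusted p under 0.05, against 6.25% of all. The remaining windows had too few densely covered mutant embryos for the test. Plagl1 window 1 stood at 12.5% ± 17.7 (SD, n = 2) in mutant and 35.5% ± 40.9 (SD, n = 5) in control embryos of this kind, and Grb10 window 1 at 15.6% ± 22.1 (SD, n = 2) in mutant and 10.8% ± 9.85 (SD, n = 5) in control embryos. At Grb10 window 1 the difference was thus 4.87 points in densely covered embryos and -7.82 points in all embryos. Sparsely covered embryos gave no window with 3 values in each group.

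Windows around the genes gave no call. Of 29 windows within 1 Mb of the Plagl1 range, 21 were tested, 15 lower and 6 higher in mutant embryos by their means, with a median difference of -3.37 points and 0 calls (3 at an unadjusted p under 0.05). Of 22 windows around the Grb10 range, 14 were tested, 6 lower and 8 higher, with a median of 1.18 points and 0 calls (0 at an unadjusted p under 0.05). Of all windows tested, 55.9% had a lower mutant mean. Some flanking windows of either gene overlap each other, so their counts and medians are not over separate stretches of DNA. Averaged per embryo over all flanking windows with a value, tested or not, the Plagl1 flanks stood at 6.40% ± 5.83 (SD, n = 10) in mutant and 14.3% ± 9.32 (SD, n = 10) in control embryos, a difference of -7.88 points. The Grb10 flanks stood at 7.59% ± 9.44 (SD, n = 8) and 14.9% ± 12.1 (SD, n = 9) in mutant and control embryos by this measure. The difference was -7.28 points, opposite in sign to the median over their tested windows. Over the Grb10 windows the same measure gave -6.33 points, but the single windows differed in sign. They gave -7.82 points (Grb10 window 1), 6.84 points (Grb10 window 2) and 4.17 points (Grb10 window 3). Embryos cover different windows of a gene or flank, so the means per embryo are descriptions too. The nearest tested window above the Plagl1 range, from 13053268 to 13056767, had a mean level of 14.2% ± 12.8 (SD, n = 4) in mutant and 20.2% ± 19.1 (SD, n = 5) in control embryos. The nearest window below the Grb10 range, from 11847645 to 11851144, averaged 19.7% ± 24.2 (SD, n = 3) in mutant embryos and 6.76% ± 6.45 (SD, n = 5) in control embryos. Both had a limma adjusted p over the threshold (0.886 and 0.834).

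**Figure D3:**
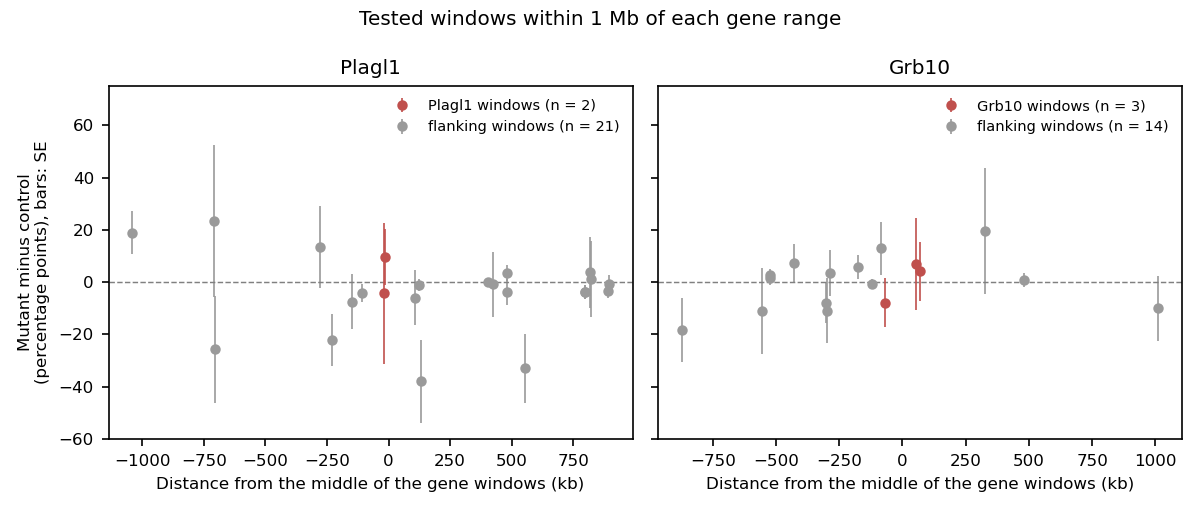
Mutant minus control difference in percentage points (vertical axis, bars are SE from limma) against distance in kb from the middle of the windows of each gene, for all tested windows within 1 Mb. The 2 Plagl1 and 3 Grb10 windows lie among the 21 and 14 flanking windows, whose differences run from -37.9 to 23.3 points around Plagl1 and from -18.2 to 19.6 points around Grb10.

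For Grb10 window 3, the only window with enough values, levels were set against 1055 other blocks with a value in the same 12 embryos. Each block is a single window or a set of overlapping windows. The most alike lay on chromosome 16 from 4779090 to 4785069 (Pearson r = 0.89), on chromosome 6 from 87251727 to 87258630 (r = 0.88) and on chromosome 7 from 43444001 to 43450382 (r = 0.87). These are the highest of many correlations over 12 embryos, and they are given as a description. Some of these embryos were densely and some sparsely covered, and the part of coverage in the correlations was not tested.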

How the data were processed

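Per the submitters' processing notes, the tools were Trim Galore 0.4.4 and Bismark 0.18.2, with build GRCm39. The scores the authors deposited are methylation levels in percent, for each promoter window in each embryo. The sources used here do not give how calls were combined within a window or any coverage minimum, and without read counts the depth is unknown, so no binomial interval or detection floor is given. Of 54080 rows, 46 repeated another and were dropped, leaving 54034. Whole numbers above 100 (1594 of 491705 values, 0.324%) were read as percents without their decimal point and divided by 1000; 0 were at Plagl1 or Grb10.

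Untransformed percents were compared with limma 3.58.1 in R 4.3.3 (lmFit, eBayes), mutant minus control, over windows covered in 3 or more embryos per group, with Benjamini-Hochberg adjustment over all of them. Intervals use the moderated SE and degrees of freedom. The same fit was run on 44959 blocks, of which 37932 are single windows and the rest overlapping windows joined (18 of 30804 passed, 0.0584%). The 6 Plagl1 and Grb10 blocks are single windows. The procedure was tested on simulated data. The windows changed there had values in more mutant embryos than any Plagl1 or Grb10 window, so it does not give the power at these. The earlier whole-series minimum of 7 embryos per group became an alternative, because it leaves no Plagl1 or Grb10 window. Every window found by position is described; stretches with a like pattern are the 3 with the highest Pearson correlation over at least 12 shared embryos. The members and lists were chosen with earlier results of these data known. Lists of other imprinted and growth genes were not used, because the windows carry no gene names. Promoter sequences are from RefSeq, GRCm38.p6, and matched both symbols.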

Additional observations from a re-analysis of the deposited data

Results flagged for a closer look

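Of 14 groups of values checked, 3 held a mutant embryo whose gap to its neighbour exceeds the 95% limit for that number of embryos. For values without ties chance gives about 1 in 20, but where the other embryos are all at exactly 0%, as in 2 of the 3, any value above 0 exceeds the limit, so that rate does not apply and the embryos are given as values only. At Plagl1 window 2, mutant replicate 17 stood at 50% with the other 3 mutant embryos at 0%. At Grb10 window 1, mutant replicate 14 stood at 31.25% with the other 3 at 0%. In the mean over Grb10 windows, mutant replicate 14 stood at 57.6%, with the next mutant embryo at 13.9%. Both Grb10 results come from the same embryo and share values.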

How the results depend on the processing

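No paired analysis was possible because the sources used here name no mother or litter by which mutant and control embryos could be matched. The replicate numbers, 11 to 20 in mutant and 1 to 10 in control embryos, are labels of single embryos.

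Of the Plagl1 and Grb10 windows and blocks, 0 passed the threshold under the alternatives run on them, quantile normalization included, which was applied to them after seeing the data (differences of -11.8 to 16.1 points). At least 7 embryos per group and sparsely covered embryos left none of them to test, at least 5 left Grb10 window 3, and densely covered embryos left 3. Of 126 estimates under alternatives, 119 kept their sign and 7 turned it. Many of the 119 could not differ from the main estimate, so this count does not measure stability. The permutation test, values above 100 left out, and variance trend and robust fitting leave the difference as it is. So does leaving out an embryo with no value in the window. The sign turned at Grb10 window 2 with embryo quality weights (-0.14 points) and at Plagl1 window 2 in densely covered embryos (-2.87). It also turned at Grb10 window 1 in densely covered embryos (4.87 points, 2 mutant embryos), which was not tested and is not among the 126. With each embryo left out in turn, differences ran from -27.2 to 11.9 points at Plagl1 window 1 (lowest without mutant replicate 15), -2.87 to 13.8 at Plagl1 window 2, -15.6 to -2.94 at Grb10 window 1, 2.10 to 13.2 at Grb10 window 2 and -7.50 to 9.17 at Grb10 window 3; where 2 mutant embryos were left, the window was not tested. Without values of exactly 0 and 100 the difference in the mean over windows was 11.4 points at Plagl1 (2 mutant and 6 control embryos) and -0.95 at Grb10 (3 and 7), against 2.89 and -6.33.

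Over the whole table the 14 windows and 18 blocks past the threshold became 0 and 6 with at least 5 embryos, 3 and 4 with at least 7, 4 and 2 in densely covered embryos, 2 and 2 in sparsely covered ones, 0 and 0 with variance trend and robust fitting, and 30 and 36 after quantile normalization, where 14 of the 30 windows and 20 of the 36 blocks were lower in mutant embryos (11 of 14 and 15 of 18 without it). With trend and robust fitting 1705 windows and 1474 blocks had an unadjusted p under 0.05, and with at least 5 embryos 727 windows and 687 blocks. With each embryo left out in turn there were 0 to 18 windows and 0 to 19 blocks, 0 of either without mutant replicate 12. The cause was not tested. Unknown depth and few covered embryos limit every value.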
